A study of Mus musculus with 6 samples.

Results

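Pf4, Ppbp, Treml1, Itga2b, Gp1ba, Gp1bb, Gp9, Gp5 and Vwf, 9 genes that mark megakaryocytes and the platelets they release, were followed in RNA-seq of mouse articular cartilage. They were chosen by name, as the rows of the deposited table that carry these gene names, and they made up 9 of its 34709 genes. All 9 averaged at least 0.5 FPKM (fragments per kilobase of transcript length, relative to the total of the library) and were therefore among the 15373 genes tested. The study asked how expression in cartilage differs between knockout (KO) and wildtype mice, and its labels gave 3 libraries for each group. Per the methods of the study, the KO mice were a purchased C57BL/6J line and both groups were aged male littermates, and the labels name no treatment for either. The labels did not say whether a library came from 1 animal or from a pool, so the p-values measure only the spread between these samples, which may be technical.

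Megakaryocytes are large marrow cells that shed platelets into the blood. They fill alpha granules with chemokines, which include platelet factor 4 (Pf4) and the precursor of platelet basic protein (Ppbp), and with von Willebrand factor (Vwf). On the surface, the integrin alpha IIb (Itga2b), which pairs with beta 3, binds fibrinogen, and the GPIb-IX-V complex, built from Gp1ba, Gp1bb, Gp9 and Gp5, binds Vwf at sites of vessel damage. Cartilage itself has no vessels, whereas the bone beneath it holds marrow.

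Total counts ranged from 52268311 to 63331135 per library. Across genes, Pearson's r of log2(FPKM + 1) was 0.996 between KO replicates 2 and 3 and 0.980 to 0.990 in the other pairs, so as a precaution this pair was averaged into 1 sample, which left 2 KO and 3 wildtype samples. The chondrocyte markers Prg4 and Chad averaged 565 and 132 FPKM, but Matn1, Matn3 and Col9a1 reached at most 0.460 FPKM in any library, while the haemoglobin gene Hbb-bs averaged 25312 FPKM and the neutrophil gene S100a9 19521 FPKM. The summed level of the 10 chondrocyte markers was 6215 CPM (counts scaled to a common library total) in KO replicate 1 and 2710 to 3761 CPM in the other libraries. Prg4 made up most of this sum in every library, with 1034 FPKM in KO replicate 1 and 402 to 581 FPKM elsewhere. Col2a1 was not highest in KO replicate 1, with 16.0 FPKM there and 12.4 to 21.3 FPKM elsewhere. The tissue as labelled also carried transcripts of marrow and blood cells, and in such bulk samples fewer cells of a type and less RNA per cell cannot be told apart.

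The genes lie on 5 chromosomes (GRCm38). Pf4 (chr5:90772435-90773383) starts 2372 bp beyond the end of Ppbp (chr5:90768518-90770063), both on the plus strand, and the others stand apart from one another. To show what sequence lies before the most abundant pair and the genes of the GPIb-IX-V complex, the 250 bases before the start of 6 genes are given from RefSeq (GRCm38.p6), 5′ to 3′ on the strand of the gene. Capitals mark GATAA, a core bound by GATA factors, and GGAAG, a core bound by ETS factors, on either strand (TTATC and CTTCC). Both families act in megakaryocytes.
Ppbp (chr5:90768268-90768517, plus strand): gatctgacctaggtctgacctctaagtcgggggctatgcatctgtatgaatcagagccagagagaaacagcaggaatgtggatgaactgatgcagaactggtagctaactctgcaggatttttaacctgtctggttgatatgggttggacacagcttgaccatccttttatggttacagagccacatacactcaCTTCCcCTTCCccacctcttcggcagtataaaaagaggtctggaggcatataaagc
Pf4 (chr5:90772185-90772434, plus strand): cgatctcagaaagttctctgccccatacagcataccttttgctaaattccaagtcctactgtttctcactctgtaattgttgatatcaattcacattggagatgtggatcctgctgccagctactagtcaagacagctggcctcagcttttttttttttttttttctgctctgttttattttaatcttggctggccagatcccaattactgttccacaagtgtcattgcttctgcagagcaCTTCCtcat
Gp9 (chr6:87777820-87778069, plus strand): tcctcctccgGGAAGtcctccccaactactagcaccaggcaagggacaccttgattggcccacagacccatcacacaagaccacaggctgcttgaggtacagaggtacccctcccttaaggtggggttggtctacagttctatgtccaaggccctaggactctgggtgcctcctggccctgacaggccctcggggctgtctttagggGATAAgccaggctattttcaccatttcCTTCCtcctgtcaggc
Gp1ba (chr11:70638872-70639121, plus strand): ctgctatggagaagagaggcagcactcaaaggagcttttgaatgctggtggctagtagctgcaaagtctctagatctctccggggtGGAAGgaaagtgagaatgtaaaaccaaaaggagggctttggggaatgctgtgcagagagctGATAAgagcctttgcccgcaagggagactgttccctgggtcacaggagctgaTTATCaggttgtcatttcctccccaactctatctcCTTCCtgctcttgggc
Gp5 (chr16:30310782-30311031, minus strand): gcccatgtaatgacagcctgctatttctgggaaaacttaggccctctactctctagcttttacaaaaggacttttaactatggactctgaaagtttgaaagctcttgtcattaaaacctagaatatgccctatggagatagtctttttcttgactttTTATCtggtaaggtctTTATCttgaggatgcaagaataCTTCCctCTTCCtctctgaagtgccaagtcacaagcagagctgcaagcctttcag
Gp1bb (chr16:18622404-18622653, minus strand): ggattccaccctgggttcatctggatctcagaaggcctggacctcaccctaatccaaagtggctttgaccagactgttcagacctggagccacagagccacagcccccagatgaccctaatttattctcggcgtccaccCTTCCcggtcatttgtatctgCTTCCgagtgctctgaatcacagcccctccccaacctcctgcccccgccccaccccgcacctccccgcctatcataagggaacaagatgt
RefSeq promoters were matched for 8 of the 9 genes, all but Vwf. GGAAG was present in 8 of the 8, against 64.1% of the 32851 mouse promoters of the same length. GATAA was present in 3 of the 8, namely Gp9, Gp1ba and Gp5 but not Gp1bb of the complex, against 22.6% of all promoters, and these 3 held both motifs, against 13.2% of all promoters. The nearest GGAAG lay 9 bases before the start in Pf4, 16 in both Gp9 and Gp1ba, 48 in Gp5, 50 in Ppbp and 90 in Gp1bb. The nearest GATAA lay 43 bases before the start in Gp9, 51 in Gp1ba and 77 in Gp5. A match describes these letters only and is not a bound site. Other forms of either core were not searched, so a stretch without GATAA may hold another form.

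All 9 genes were detected in every library, at widely different levels. Ppbp was highest with a mean of 648 FPKM over the 6 libraries, followed by Pf4 (234), Gp9 (43.8), Treml1 (42.0), Itga2b (38.9), Gp5 (18.1), Gp1ba (13.7), Vwf (6.81) and Gp1bb (5.99). Among the 34709 genes, Ppbp ranked between 41 and 64 by FPKM in every library and Pf4 between 127 and 190, whereas Vwf ranked between 5785 and 7408. Ppbp stood above Pf4, and Pf4 above all others, with no overlap between libraries. The ranges of Gp9 and Treml1 overlapped, and Gp9 was the higher in only 3 of the 6 libraries. Treml1 and Itga2b overlapped in range, as did Gp5 and Gp1ba, but the order held within each of the 6 libraries for both pairs. Vwf was above Gp1bb in 4 of the 6.

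**Figure D1:**
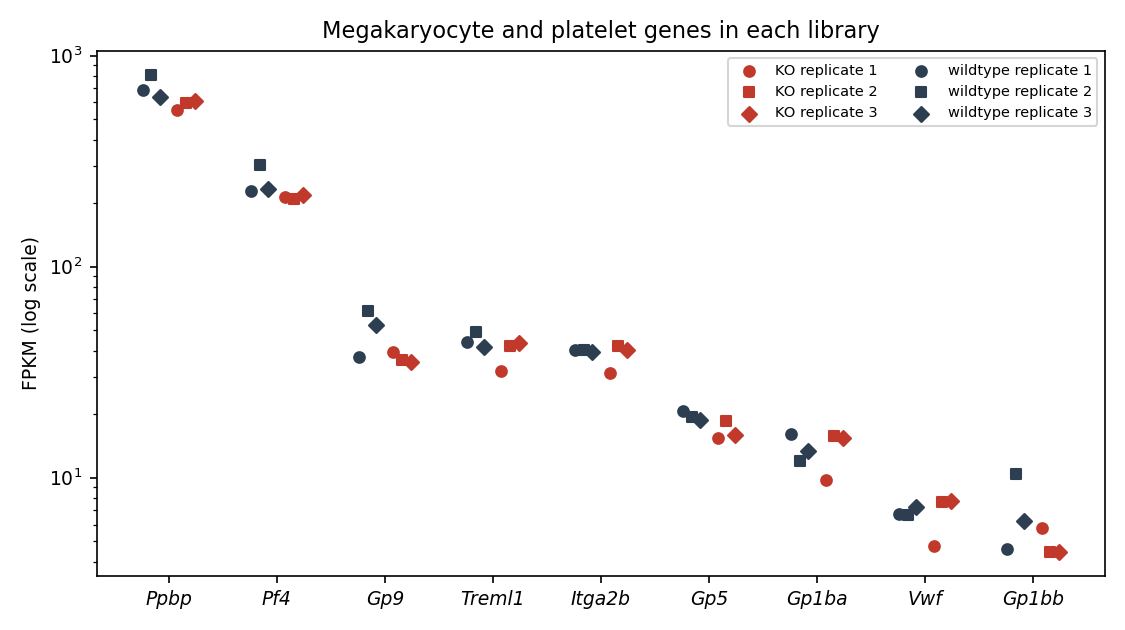
FPKM of the 9 genes (log axis) in each of the 6 libraries, with the wildtype libraries in dark blue and the KO libraries in red, ordered by mean level. Ppbp and Pf4 lie above all others, and for Gp1bb, Gp9 and Pf4 the wildtype replicate 2 point stands above the remaining 5.

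The 2 chemokines had their highest level in wildtype replicate 2. Values of a group are given here in the order of its replicates 1, 2 and 3. Ppbp had 552, 593 and 607 FPKM in KO and 687, 812 and 639 FPKM in wildtype. All KO values were below all wildtype values, with a log2 difference (KO minus wildtype) of -0.29 (SE 0.198, 95% interval -0.76 to 0.17), or 0.816 times the wildtype level. Without wildtype replicate 2 the difference was -0.16. Pf4, the chemokine that also binds heparin, had 214, 210 and 220 FPKM in KO and 228, 302 and 232 FPKM in wildtype. On the FPKM scale these groups did not overlap either, but on log2 CPM with TMM scaling KO replicate 1 was above wildtype replicate 1. The log2 difference of Pf4 was -0.23 (SE 0.181, 95% interval -0.65 to 0.20), and without wildtype replicate 2 it was -0.054. Within a library the ratio of Ppbp to Pf4 in FPKM stayed between 2.57 and 3.01, a 1.17-fold range.

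Treml1 encodes a receptor kept in alpha granules and brought to the platelet surface on activation. It (chr17:48359916-48367176) had 32.2, 42.3 and 43.6 FPKM in KO and 43.9, 48.8 and 41.5 FPKM in wildtype. KO replicate 1 was the lowest library, and KO replicates 2 and 3 lay within the wildtype range, with a log2 difference of -0.24 (SE 0.156, 95% interval -0.61 to 0.12) that became -0.098 without KO replicate 1 and -0.15 without wildtype replicate 2.

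Itga2b (chr11:102453297-102470122, minus strand), the platelet integrin subunit, varied least. It had 31.2, 42.1 and 40.3 FPKM in KO and 40.2, 40.4 and 39.3 FPKM in wildtype. The library that departed was again KO replicate 1, and the other 5 lay between 39.3 and 42.1 FPKM. Its log2 difference of -0.13 (SE 0.144, 95% interval -0.47 to 0.21) was 0.0056 without KO replicate 1. The standard deviation (SD) of its log2 CPM over the 6 libraries was 0.124, and 86.2% of tested genes had a larger one.

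The 4 genes of the GPIb-IX-V complex did not all vary together. Gp1ba (chr11:70639122-70642036), which carries the Vwf binding site, had 9.72, 15.7 and 15.4 FPKM in KO and 16.0, 11.99 and 13.3 FPKM in wildtype. KO replicate 1 was lowest and wildtype replicate 1 highest, and the log2 difference of -0.11 (SE 0.199, 95% interval -0.58 to 0.36) turned to 0.14 without KO replicate 1 and was -0.014 without wildtype replicate 1. Gp9 (chr6:87778072-87779768), the small subunit needed for the complex to reach the surface, had 39.6, 36.2 and 35.3 FPKM in KO and 37.4, 61.5 and 52.8 FPKM in wildtype. Here wildtype replicates 2 and 3 were high, and wildtype replicate 1 was within the KO range. The log2 difference was -0.41 (SE 0.240, 95% interval -0.98 to 0.16), and -0.21 without wildtype replicate 2.

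Gp1bb, the subunit joined to Gp1ba by disulphide bonds, was the most variable of the 9, with 5.76, 4.46 and 4.46 FPKM in KO and 4.57, 10.5 and 6.22 FPKM in wildtype. Wildtype replicate 2 was far above the rest, and wildtype replicate 1 was near KO replicates 2 and 3. The log2 difference of -0.46 (SE 0.378, 95% interval -1.35 to 0.43) was -0.028 without wildtype replicate 2, -0.71 without wildtype replicate 1 and -0.72 without KO replicate 1. The SD of Gp1bb over the libraries was 0.513 (log2 CPM), exceeded by 15.8% of tested genes. The value of Gp1bb is uncertain for another reason: in GENCODE M21 it (chr16:18620317-18622403, minus strand) overlaps Septin5 (chr16:18620502-18629954) and Gm49601 (chr16:18620466-18626427) on the same strand, so the strand of a read cannot separate them. Septin5, a septin of the cytoskeleton, had 32.3, 33.6 and 31.6 FPKM in KO and 17.0, 22.6 and 19.2 FPKM in wildtype. It was higher in all KO libraries, opposite in sign to Gp1bb, with a log2 difference of 0.74 (SE 0.165) and an adjusted p of 0.168 by edgeR (quasi-likelihood test, Benjamini-Hochberg) (0.0399 with the 6 libraries as labelled).

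Gp5 (chr16:30307685-30310779, minus strand), the subunit cleaved by thrombin, had 15.4, 18.5 and 15.9 FPKM in KO and 20.6, 19.4 and 18.8 FPKM in wildtype. All KO libraries were below all wildtype libraries, by a small margin between KO replicate 2 and wildtype replicate 3. The log2 difference of -0.25 (SE 0.123, 95% interval -0.54 to 0.04) had the lowest adjusted p of the 9, 0.448 by edgeR (quasi-likelihood test, Benjamini-Hochberg). With the 6 libraries as labelled it was -0.24, with a 95% interval of -0.48 to -0.0050 and an adjusted p of 0.216 by the same test.

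The ratio of Gp9 to Gp1ba in FPKM was 4.07, 2.30 and 2.30 in KO and 2.33, 5.13 and 3.96 in wildtype. The ratio of Gp1bb to Gp1ba was 0.593, 0.283 and 0.290 in KO and 0.285, 0.873 and 0.467 in wildtype. These ratios were high in the same 3 libraries (KO replicate 1 and wildtype replicates 2 and 3) and low in the other 3, so they divided the libraries across the groups rather than between them. Gp5 over Gp1ba, at 1.59, 1.18 and 1.03 in KO and 1.29, 1.62 and 1.41 in wildtype, was high in the same 3 libraries within a narrower range. Gp9 and Gp1bb varied more alike: Gp9 over Gp1bb ranged from 5.88 to 8.49, a 1.44-fold range. That range was 2.23-fold for Gp9 over Gp1ba and 3.08-fold for Gp1bb over Gp1ba.

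**Figure D2:**
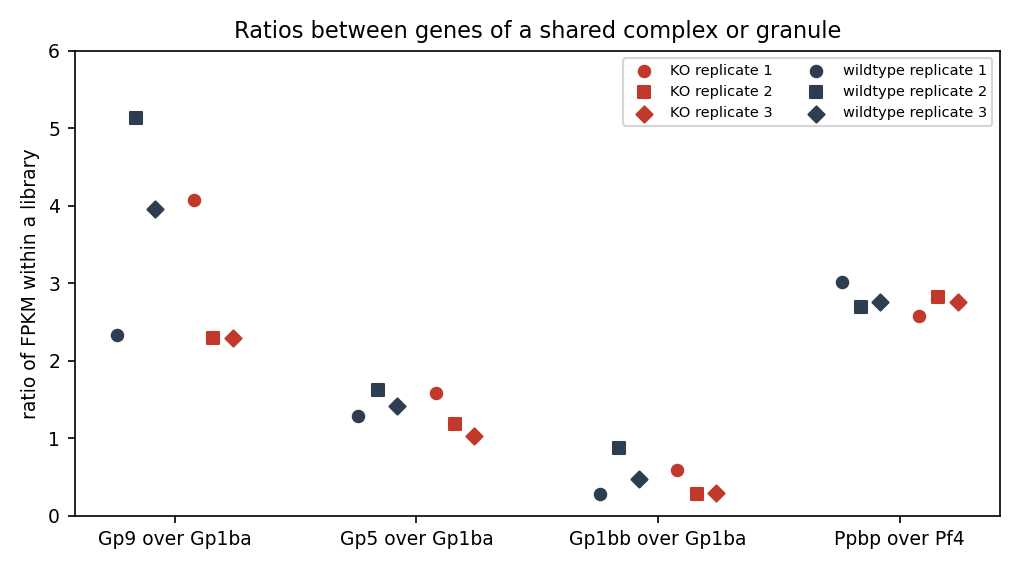
Ratio of FPKM between genes whose products share a complex (Gp9, Gp5 and Gp1bb, each over Gp1ba) or a granule (Ppbp over Pf4) in each of the 6 libraries, KO in red and wildtype in dark blue. Gp9 over Gp1ba runs from 2.30 to 5.13 with both groups on each side, whereas Ppbp over Pf4 stays between 2.57 and 3.01.

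Vwf (chr6:125546774-125686679), the ligand of the complex, is made by endothelial cells as well as megakaryocytes. It had 4.77, 7.69 and 7.72 FPKM in KO and 6.76, 6.63 and 7.28 FPKM in wildtype. KO replicate 1 was the lowest library and KO replicates 2 and 3 were the highest, so the KO libraries lay on both sides of the wildtype range. The log2 difference was -0.14 (SE 0.181, 95% interval -0.56 to 0.29) and turned to 0.13 without KO replicate 1. Of 12 endothelial markers, 12 had a log2 difference below 0, with a median of -0.44, and 0 passed the adjusted threshold by edgeR. Their summed level was 280 to 292 CPM in KO and 302 to 480 CPM in wildtype, with the lowest wildtype value in replicate 2. The part of endothelial RNA in the Vwf values was not tested.

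With KO compared with wildtype, none of the 9 genes was called. At an adjusted p under 0.05, 0 of the 9 passed in edgeR (quasi-likelihood test, Benjamini-Hochberg), against 0% of all tested genes, and adjusted p-values ran from 0.448 (Gp5) to 0.891 (Gp1ba). At an unadjusted p under 0.05, 0 of the 9 passed in the same fit, where 13.7% of all tested genes did. With the 6 libraries as labelled, 0 of the 9 passed the adjusted threshold against 3.71% of tested genes, and 1 of the 9, Gp5, had an unadjusted p under 0.05 (0.0463 by edgeR), as did 22.2% of tested genes. DESeq2 on the 5 samples called 0 of the 9 as well, against 5.72% of tested genes. The upper limits of the 95% intervals lay between 0.04 and 0.21 for Gp5, Treml1, Gp9, Ppbp, Pf4 and Itga2b and between 0.29 and 0.43 for Vwf, Gp1ba and Gp1bb, and the lower limits ran from -1.35 (Gp1bb) to -0.47 (Itga2b).

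All 9 log2 differences were below 0, with a median of -0.24, beside a median of -0.016 over all tested genes, of which 8065 were lower and 7308 higher. In 2 of the 9, Ppbp and Gp5, all KO libraries were below all wildtype libraries on log2 CPM, against 13.0% of tested genes, and in 0 of the 9 were all KO libraries above, against 13.7%. The genes are not independent of one another, since they come from the same cells and libraries. Relative to the wildtype mean of each gene, the median of the 9 was -0.28, -0.12 and -0.23 (log2 CPM) in KO and -0.07, 0.18 and -0.07 in wildtype. The groups did not overlap, though KO replicate 2 lay only slightly below wildtype replicates 1 and 3. Without wildtype replicate 2 the median log2 difference was -0.15, and without KO replicate 1 it was -0.22 with 6 of the 9 genes lower.

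**Figure D3:**
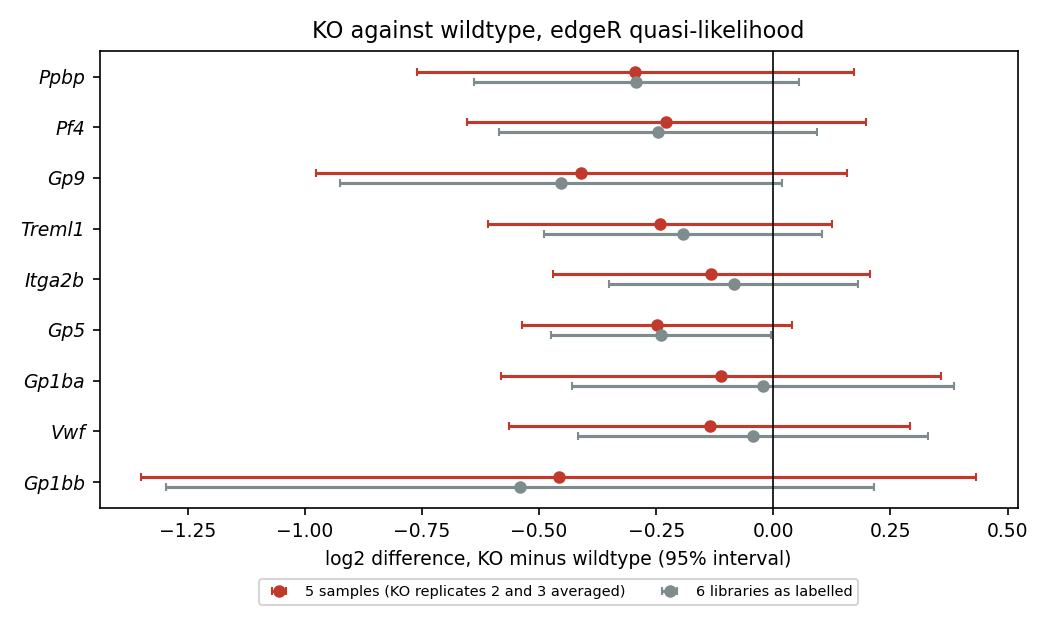
Log2 difference of each of the 9 genes, KO minus wildtype, by edgeR's quasi-likelihood test, with bars for the 95% interval, for the 5 samples with KO replicates 2 and 3 averaged (red) and for the 6 libraries as labelled (grey). All points lie below 0, and among the bars only that of Gp5 with the 6 libraries as labelled (-0.48 to -0.0050) ends below 0.

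Among single libraries, wildtype replicate 2 most often held the highest value of the 9 genes and KO replicate 1 most often the lowest. Wildtype replicate 2 was the highest library for 7 of the 9 genes on log2 CPM, whereas it was highest for 16.1% of tested genes. The exceptions were Gp1ba, highest in wildtype replicate 1, and Vwf, highest in KO replicate 3. KO replicate 1 was the lowest library for 4 of the 9 (Treml1, Itga2b, Gp1ba and Vwf), against 18.9% of tested genes, and KO replicates 2 and 3 were the lowest for the other 5. Gp1bb and Gp9 had the largest SD of the 9. Relative to the wildtype mean, both were low in KO replicates 2 and 3 and wildtype replicate 1. The values there were -0.62, -0.62 and -0.59 for Gp1bb and -0.49, -0.52 and -0.45 for Gp9.

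KO replicate 1 and wildtype replicate 2 also differed from the rest by transcript length over all genes. Across 15357 tested genes, the deviation of a library from the mean of the 6 (log2 CPM) had a Spearman's rho with transcript length of -0.35 in KO replicate 1 and -0.32 in wildtype replicate 2, and of 0.17 to 0.22 in KO replicates 2 and 3 and wildtype replicate 1. The 4206 genes with transcripts under 1500 nt had a median deviation of 0.16 in KO replicate 1 and 0.17 in wildtype replicate 2, and the 4167 genes of at least 4000 nt had medians of -0.12 and -0.091. Of the 9 genes, Pf4 (588 nt), Gp9 (881 nt), Ppbp (1083 nt) and Treml1 (1235 nt) have short transcripts, Gp1bb (2085 nt), Gp5 (2197 nt), Gp1ba (2710 nt) and Itga2b (3437 nt) longer ones, and Vwf (8834 nt) the longest. The 4 short ones were highest in wildtype replicate 2, as were Gp1bb, Gp5 and Itga2b. In KO replicate 1, Pf4, Ppbp, Gp9 and Treml1 stood at -0.16, -0.29, -0.25 and -0.40 (log2 CPM minus the wildtype mean). Gp1bb, Gp5, Itga2b, Gp1ba and Vwf stood there at -0.14, -0.27, -0.28, -0.42 and -0.45. Spearman's rho with GC content (share of G and C bases) was 0.25, -0.086 and -0.098 in KO replicates 1, 2 and 3. In wildtype replicates 1, 2 and 3 it was -0.15, 0.039 and 0.071. Its sign, but not its size, divided the libraries as did the ratios to Gp1ba. The rho was 0.039 in wildtype replicate 2, where Gp9 over Gp1ba was highest at 5.13. It was 0.25 in KO replicate 1, where that ratio was 4.07. GC content was 62.0% in Gp1bb, 59.3% in Gp5 and 58.3% in Gp9 but 51.6% in Gp1ba, and from 42.4% (Ppbp) to 58.2% (Itga2b) in the others. The parts of transcript length and GC content in these values were not tested.

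**Figure D4:**
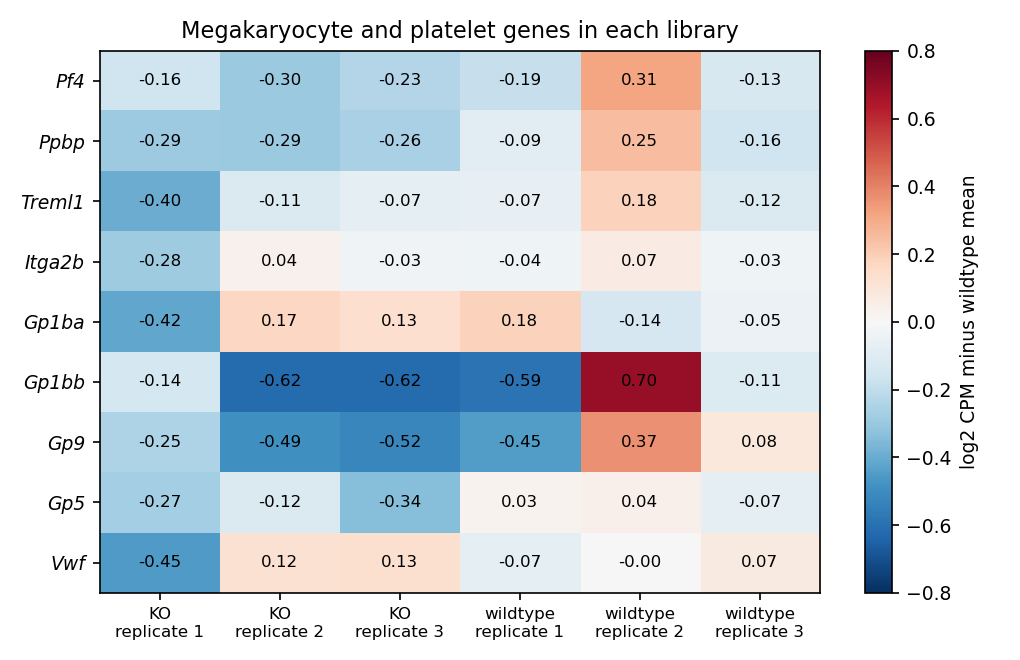
Log2 CPM of each of the 9 genes in each library minus the wildtype mean of that gene, with red above and blue below that mean. Wildtype replicate 2 holds the highest value of 7 rows, up to 0.70 for Gp1bb, and KO replicate 1 the lowest of 4 rows, down to -0.45 for Vwf.

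Other genes of the lineage, 37 transcription factors, receptors, granule proteins, cytoskeletal and signalling genes and enzymes, gave no uniform direction. All 37 were tested, 25 were lower and 12 higher in KO, with a median log2 difference of -0.13, and 0 passed the adjusted threshold by edgeR's quasi-likelihood test, with 6 at an unadjusted p under 0.05 (Gata1, Gfi1b, Tal1 and Mmrn1 lower, Nbeal2 and Ptgs1 higher), where 13.7% of all tested genes had one. With the 6 libraries as labelled 1 passed (Nbeal2), against 3.71% of all tested genes, and with DESeq2 2 passed (Nbeal2 and Gata1), against 5.72%. These shares are near the background. With the 6 libraries as labelled, 14 of the 37 had an unadjusted p under 0.05 by edgeR, a larger share than the 22.2% of all tested genes. All KO libraries lay below all wildtype libraries on log2 CPM in 9 of the 37, also a larger share than the 13.0% of tested genes. They lay above in 5 of the 37, against 13.7%. Of the 10 surface receptors 9 were lower (median -0.21), of the 9 transcription factors 7 were lower (median -0.42), and of the 7 granule genes 5 were higher (median 0.089).

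Gata1, the factor that drives both megakaryocytes and red cells, had 25.4, 21.4 and 23.1 FPKM in KO and 32.3, 35.5 and 41.3 FPKM in wildtype, with no overlap. Its log2 difference was -0.59 (SE 0.164), with an adjusted p of 0.202 by edgeR (quasi-likelihood test, Benjamini-Hochberg). Gfi1b, a repressor used in the same lineages, had a log2 difference of -0.61 (SE 0.221). Among the erythroid markers, of 10, 10 had a log2 difference below 0, with a median of -0.67, and their summed level was 13579 to 32340 CPM in KO and 38523 to 59192 CPM in wildtype. The part of red cell precursors in the values of Gata1 and Gfi1b was not tested.

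The other 5 lower genes named by rule had log2 differences between -0.46 and -0.15. Itgb3, the beta 3 partner of Itga2b, had a log2 difference of -0.15 (SE 0.221). Gp6, the collagen receptor, had -0.32 (SE 0.141), Clec1b, the podoplanin receptor, -0.46 (SE 0.220), and Tubb1, the beta tubulin of platelets, -0.28 (SE 0.146). Mmrn1, which encodes the granule protein multimerin, had -0.39 (SE 0.157). Adjusted p-values of these 5 lay between 0.333 and 0.861 by edgeR (quasi-likelihood test, Benjamini-Hochberg).

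In the other direction, Nbeal2, which is needed to form alpha granules, had 16.6, 22.6 and 22.0 FPKM in KO and 11.6, 11.8 and 13.6 FPKM in wildtype, with no overlap. Its log2 difference was 0.66 (SE 0.150), with an adjusted p of 0.168 by edgeR (quasi-likelihood test, Benjamini-Hochberg) and of 0.0363 with the 6 libraries as labelled. Ptgs1, the platelet cyclooxygenase, had a log2 difference of 0.37 (SE 0.130), and Srgn, the granule proteoglycan serglycin, one of 0.41 (SE 0.212). These 3 genes are used by other myeloid cells too, and the neutrophil markers were higher in KO in 10 of 10, with a median log2 difference of 0.88 and a summed level of 46810 to 52344 CPM in KO against 24228 to 37013 CPM in wildtype. The part of neutrophils in these values was not tested.

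**Figure D5:**
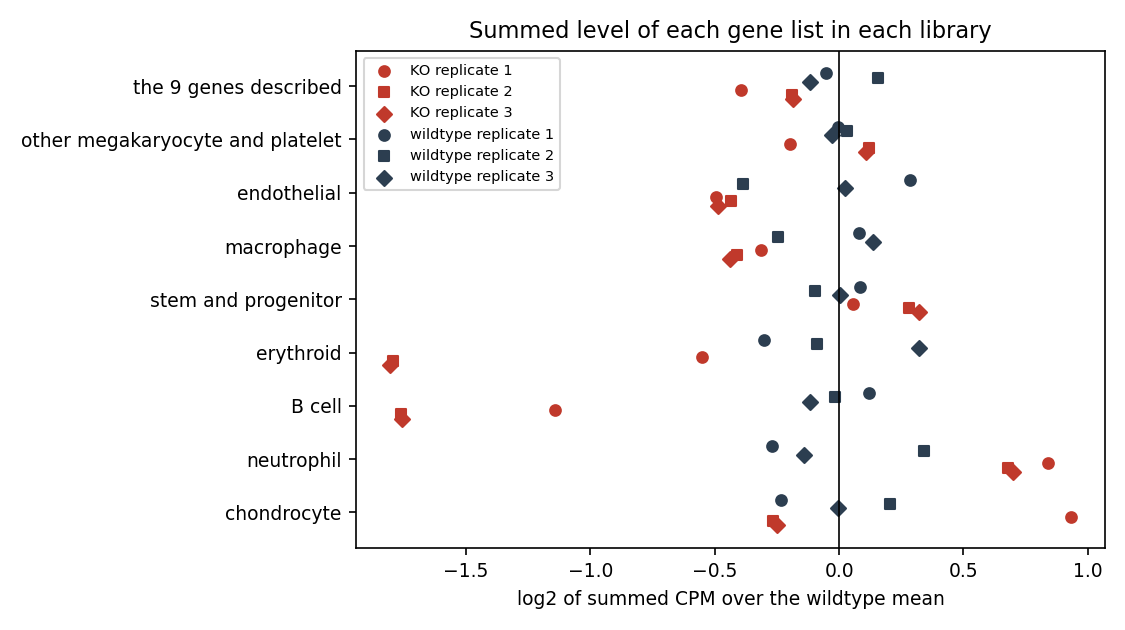
Summed CPM of each gene list in each library on a log2 scale, set to 0 at the wildtype mean, KO in red and wildtype in dark blue. The 9 genes described span a narrower range than the erythroid, B cell, neutrophil and chondrocyte markers. Their summed level was 1288 to 1487 CPM in KO and 1558 to 1883 CPM in wildtype. Ppbp was the largest part of this sum, and of the 9 genes only Ppbp and Gp5 had all KO libraries below all wildtype libraries on log2 CPM.

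Marker lists of other cells in the tissue were summed for comparison. The B cell markers had a median log2 difference of -1.50, with all 10 lower, while 6 of 8 macrophage markers were lower (median -0.34) and all 5 tested of the 6 stem and progenitor markers were higher (median 0.19). Among the most abundant of each list, Cd79a and Cd79b averaged 63.0 and 59.6 FPKM, C1qb and C1qa 97.1 and 84.7 FPKM, Cd48 and Kit 43.2 and 5.31 FPKM, Pecam1 and Plvap 11.4 FPKM each, Hba-a1 10363 FPKM and S100a8 11015 FPKM. Ppbp, at 648 FPKM, was above every one of these save the erythroid and neutrophil genes. The part of changes in other cells' share of the RNA in the lower CPM of the 9 genes was not tested.

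The genes whose pattern over the 6 libraries came closest to the mean pattern of the 9 were searched among genes averaging at least 5 FPKM. Alox12, the platelet 12-lipoxygenase, was nearest, with a root mean square distance of 0.040 (log2 CPM), followed by Cep57 (0.046), Phb (0.049), Mpig6b (0.055), an inhibitory receptor of megakaryocytes, and Erh (0.056). Alox12 had 24.0, 28.6 and 28.4 FPKM in KO and 30.8, 33.3 and 30.8 FPKM in wildtype. Alox12 and Mpig6b were among the 37 other lineage genes, and Cep57, Phb and Erh are expressed widely. Of the 9 genes themselves, Ppbp (0.069), Treml1 (0.081) and Pf4 (0.095) lay nearest to the mean pattern and Gp1bb (0.357) farthest.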

How the data were processed

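The authors sequenced mRNA of 6 strand-specific libraries with molecular identifiers (paired reads of 150 nt). Per the labels, the submitters' processing notes name cutadapt 1.9, HISAT2 2.0.4, UMI-tools, StringTie 1.3.4d, DESeq2 and edgeR. The deposited table held FPKM, scaled by the authors within each library, and a count per gene. The deposited counts were treated as estimated counts: they were whole as given, but more values lay at 4 (6596) than at 3 (4170) or 5 (2332). The deleted gene and 1 gene of the naming rule are left out of the text.

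The fit used edgeR 4.0.16 (quasi-likelihood, TMM, R 4.3.3) on genes averaging at least 0.5 FPKM, Benjamini-Hochberg adjustment over all of them, and a call at an adjusted p under 0.05. Log2 CPM used a prior count of 2. KO replicates 2 and 3 differed 7.27 times as much as Poisson sampling (10000 to 50000 counts) against 160 to 1363 times for other pairs, and were averaged and rounded. The 9 genes, all lists, the treatment of these replicates and the rule for naming genes were chosen with earlier results of these data known. The rule took the 9 genes, 3 other lineage genes with the smallest p in each direction plus Gata1, Itgb3, Gp6, Clec1b and Tubb1, the 2 most abundant of each marker list, and the 5 nearest in pattern. Septin5, Gm49601, Col2a1, Matn1, Matn3, Col9a1, Tal1 and Bin2 were named after their values were seen. For each gene, transcript length and GC content are of the longest protein-coding transcript that the deposited table lists, as given in GENCODE M21 (GRCm38). Where no listed transcript was protein-coding, the longest of any type was taken. In GENCODE M21, 34607 genes matched, and 91.5% of these had the same start and end. Alternatives were DESeq2 1.42.0, limma 3.58.1, other scalings and filters, a replicate block and each library left out.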

Additional observations from a re-analysis of the deposited data

How the results depend on the processing

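None of the 9 genes was called under any alternative run, and 150 of their 153 log2 differences under alternatives had the main sign. The other 3 arose without KO replicate 1. With 1 library left out, Itga2b ranged from -0.15 to 0.0056, Gp1ba from -0.18 to 0.14 and Vwf from -0.17 to 0.13, the highest value each time without KO replicate 1. Without KO replicates 2 and 3, which enter as 1 sample, they were -0.28, -0.42 and -0.45, Gp1bb was -0.23 and the median of the 9 -0.28. The median of the 9 ranged from -0.28 to -0.15 with 1 library left out, and from -0.29 to -0.20 otherwise. The number of genes called among all tested was 0 in the 5-sample fit, 570 with the 6 libraries as labelled, 879 by DESeq2, 21 with no filter on low values, 9 without KO replicates 2 and 3 together, and 0 to 352 with 1 library left out (352 without KO replicate 1). At an unadjusted p under 0.05 the 5-sample fit gave 2106. Among the 37 other lineage genes, 1 was called with the 6 libraries as labelled (Nbeal2), 2 by DESeq2 (Nbeal2 and Gata1), and 0 to 1 with 1 library left out (Bin2 without KO replicate 1, named after its value was seen). The causes were not tested. Same-numbered libraries did not deviate alike (correlations of deviations from the group mean -0.14, -0.11 and -0.058). With KO replicates 2 and 3 near-identical, these correlations are not separate checks and cannot decide whether libraries were paired. With the replicate block 0 genes were called and the median of the 9 was -0.23. With 2 KO samples, one of them the average of a near-identical pair, differences of the size seen here were not resolved.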
